A study of Mus musculus with 10 samples.

Results

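Kallikreins are secreted serine proteases made as inactive precursors, and the genes for the prostate members lie side by side on chromosome 19, where androgens drive KLK2 and KLK3 in luminal prostate cells. Prostatic acid phosphatase is the other classical secreted prostate enzyme and serum marker, and its gene lies on chromosome 3. It is also the antigen, fused to GM-CSF, with which sipuleucel-T (sip-T), a cell product from human blood, is prepared. The genes described are KLK3, KLK2, KLK4, KLK15 and ACPP, the former symbol of ACP3. They were taken by symbol from the deposited count table, giving 5 genes of 58735, and all 5 were among the 16913 genes abundant enough to be tested.

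Both groups carried subcutaneous tumours of LNCaP, a human prostate cancer line that responds to androgen, in mice labelled NOD.Cg-Prkdcscid Il2rgtm1Wjl/SzJ, a strain that has no T, B or NK cells of its own. Mice of the control group (5 tumours) received 4 weekly intraperitoneal injections of control sip-T, each with 5000000 cells in 100 µl. For the IL-15 group (5 tumours) the labels add 1 µg of recombinant human IL-15 to the same cells, whereas the series' own account has the cells exposed to IL-15 and the cytokine injected as well, so both cannot be told apart. RNA was sequenced from tumours collected at day 7 following the final injection. All tumours derive from 1 cell line, the number of sip-T donors is not stated, and p-values cover the spread among the 10 libraries only, part of which may be technical. Library totals ran from 13560224 to 19324056 reads assigned to human genes, and no batch is named in the labels. All 8 luminal prostate markers were detected, with summed levels of 3955 to 4565 CPM in control and 3469 to 4440 CPM in IL-15 tumours, and the 5 basal markers summed to 19.99 to 97.5 and 35.9 to 83.4 CPM, with KRT14 detected and TP63 at 0 in every library. Levels are given as CPM, read counts relative to a library total that was scaled by the TMM method (trimmed mean of M-values). A count of 3 corresponds to 0.160 to 0.221 CPM, for counting error only.

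KLK3 was the most abundant of the 5 genes and KLK4 was the member whose groups did not overlap. KLK3 encodes prostate-specific antigen (PSA), the protease that liquefies the semen clot and the serum marker of prostate cancer (ENSG00000142515, hg38 chromosome 19, 50854915 to 50860764, plus strand). It measured 6043, 3330, 4114, 4777 and 5453 CPM in control tumours 1 to 5 and 5993, 3848, 5721, 7450 and 4908 CPM in IL-15 tumours 1 to 5. The lowest value was in a control tumour and the highest in an IL-15 tumour, with the groups overlapping over most of their range. The means were 4743 ± 1071 and 5584 ± 1336 CPM (SD, n = 5 each), a log2 fold change of 0.24 ± 0.20 (SE; edgeR quasi-likelihood test, adjusted p = 0.845 over all genes). In bulk tumour RNA, fewer cells of a type and less RNA per cell cannot be told apart. This single gene took 0.326% to 0.742% of all reads assigned to human genes.

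KLK2 encodes a trypsin-like kallikrein that can activate the PSA precursor (ENSG00000167751, chromosome 19, 50861568 to 50880567, plus strand). Control tumours 1 to 5 held 829, 535, 457, 735 and 1319 CPM, and IL-15 tumours 1 to 5 held 1146, 883, 560, 1166 and 601 CPM. Control tumour 5 was the highest of all 10, so the top of the control range lay above the whole IL-15 group. The means were 775 ± 339 and 871 ± 289 CPM (SD, n = 5 each), a log2 fold change of 0.17 ± 0.30 (edgeR adjusted p = 0.931). The log2 fold change ran from 0.03 without control tumour 3 to 0.45 without control tumour 5. KLK2 and KLK3 are close paralogs, so reads in shared stretches may be divided unevenly between them.

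KLK4 encodes a further trypsin-like kallikrein, known also for processing the enamel matrix of teeth (ENSG00000167749, chromosome 19, 50906352 to 50910738, minus strand). It measured 318, 386, 327, 367 and 513 CPM in control tumours 1 to 5, and 303, 244, 216, 265 and 240.0 CPM in IL-15 tumours 1 to 5. The IL-15 values were all lower than the control values, although IL-15 tumour 1 and control tumour 1 were only 303 and 318 CPM. The means were 382 ± 78.1 and 254 ± 32.7 CPM (SD, n = 5 each), a log2 fold change of -0.59 ± 0.16, or 0.665-fold. The difference did not pass over all genes in edgeR (adjusted p = 0.758) or in DESeq2 (adjusted p = 0.151), and the adjusted p ran from 0.151 to 0.999 over the alternatives tried. With any single tumour left out, the log2 fold change stayed between -0.66 and -0.45. A full separation in this direction was found in 0.313% of tested genes (53 of 16913) and in 0.699% of the 2289 genes with a mean of at least 100 CPM. Separation in the opposite direction was found in 0.349% of tested genes. By edgeR p, KLK4 ranked 36 among all tested genes.

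KLK15, which encodes a kallikrein reported to activate the PSA precursor, was the scarcest member (ENSG00000174562, chromosome 19, 50825289 to 50837213, minus strand). Control tumours 1 to 5 held 27.0, 19.7, 25.3, 17.9 and 29.7 CPM, and IL-15 tumours 1 to 5 held 25.4, 25.4, 20.8, 26.2 and 27.0 CPM. The IL-15 group lay wholly within the control range. The means were 23.9 ± 4.99 and 25.0 ± 2.40 CPM (SD, n = 5 each). The log2 fold change was 0.06 ± 0.16 (edgeR adjusted p = 0.958), and it was -0.0023 without control tumour 2 and -0.03 without control tumour 4. Its 95% interval was -0.26 to 0.38 by a normal approximation, which is narrower than the edgeR test itself implies. An antisense gene, AC011523.1, overlaps KLK15 and had 29 to 58 reads per library. The counting is not stated to use strand, so reads where both genes overlap may have been added to or left out of the KLK15 values.

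ACPP, the gene of prostatic acid phosphatase (ENSG00000014257, chromosome 3, 132317367 to 132368298, plus strand), had the largest variation within groups of the 5 genes, as edgeR estimates it. Control tumours 1 to 5 held 166, 80.1, 151, 156 and 68.8 CPM, and IL-15 tumours 1 to 5 held 139, 87.7, 367, 148 and 127 CPM. IL-15 tumour 3 stood alone, and the other IL-15 tumours lay inside the control range. The means were 124 ± 46.1 and 174 ± 111 CPM (SD, n = 5 each) and the log2 fold change was 0.48 ± 0.39 (edgeR adjusted p = 0.838). Without IL-15 tumour 3 the IL-15 mean was 125 ± 26.4 CPM (n = 4) and the log2 fold change 0.01 ± 0.28. This is the transcript of the antigen that sip-T is prepared against, and it was detected in all 10 tumours, with 963 to 5886 reads.

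**Figure D1:**
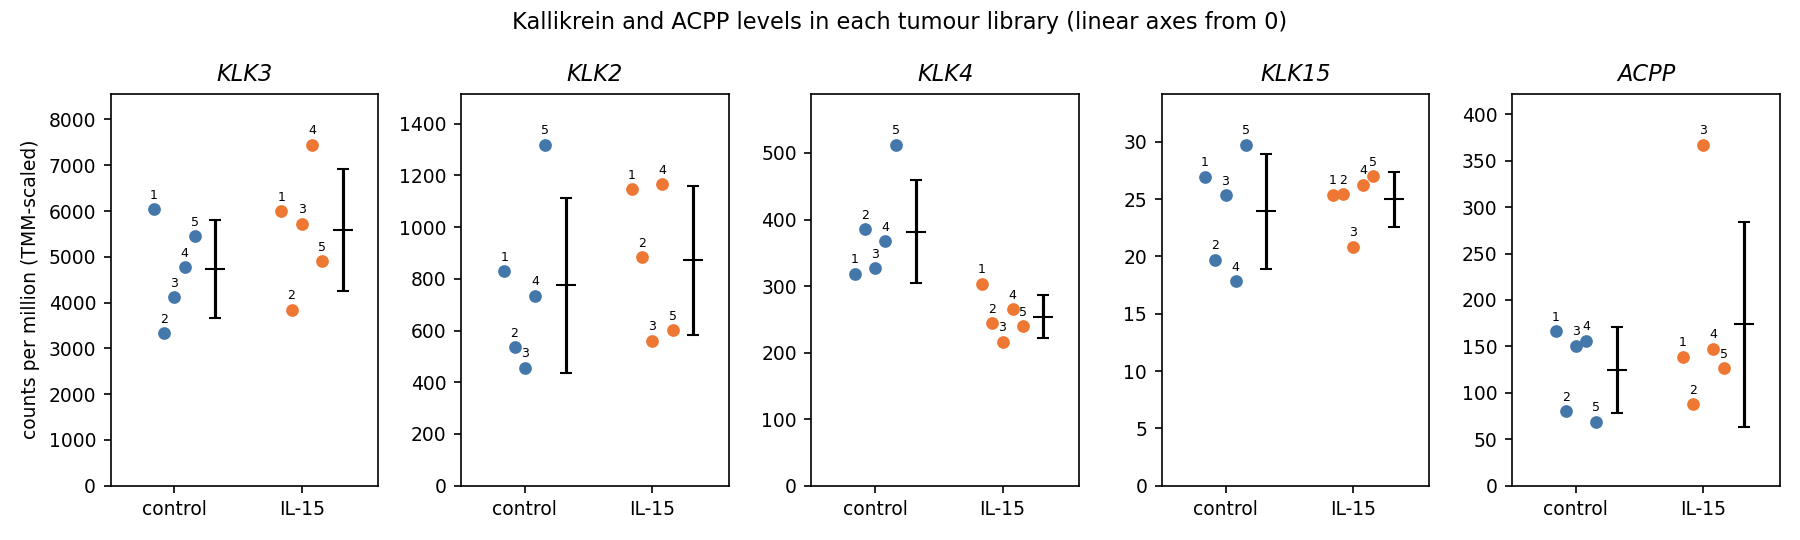
CPM of each gene (vertical axes, linear from 0) in the control and IL-15 libraries, with replicate numbers beside the points and mean ± SD to their right. KLK4 is the gene whose groups do not overlap (216 to 303 against 318 to 513 CPM), and IL-15 replicate 3 stands apart for ACPP at 367 CPM.

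Of the 5 genes, 0 passed edgeR's adjusted p of 0.05, as did 0.0% of the 16913 tested genes (0 genes, with 1092 or 6.46% at an unadjusted p under 0.05). By limma voom 0 genes passed (6.47% unadjusted), and by DESeq2 15 of 21474 genes with an adjusted p, or 0.0699%, none of them a member. DESeq2 gave an unadjusted p under 0.05 to 1683 of 40857 genes, or 4.12%. At an unadjusted p under 0.05, 1 of 5 members was lower (KLK4) and 0 were higher, beside 3.43% and 3.03% of all tested genes. Fold changes were above 0 for 4 of the 5 members, against 49.0% of tested genes, and the median over all tested genes was -0.01. The summed level of 14 T cell markers, all of them detected, ran from 4.25 to 20.3 CPM in the control group and from 5.69 to 46.6 CPM in the other, and that of 10 NK cell markers from 0.931 to 13.8 and from 3.03 to 34.7 CPM. Most of the NK cell sum was GNLY, GZMB, PRF1 and NKG7, which cytotoxic T cells also express. Read totals (control, IL-15) were 10 and 8 for NCAM1, 8 and 4 for NCR1 and 2 and 0 for KLRF1. They were 19 and 24 for KLRD1, 1 and 40 for KLRC1 and 0 and 12 for NCR3. In IL-15 tumours 1 to 5 the T cell sums were 46.6, 5.69, 28.6, 26.5 and 7.79 CPM, so that tumours 2 and 5 were within the control range. The part of T cell or NK cell RNA in the values of the 5 genes was not tested.

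**Figure D2:**
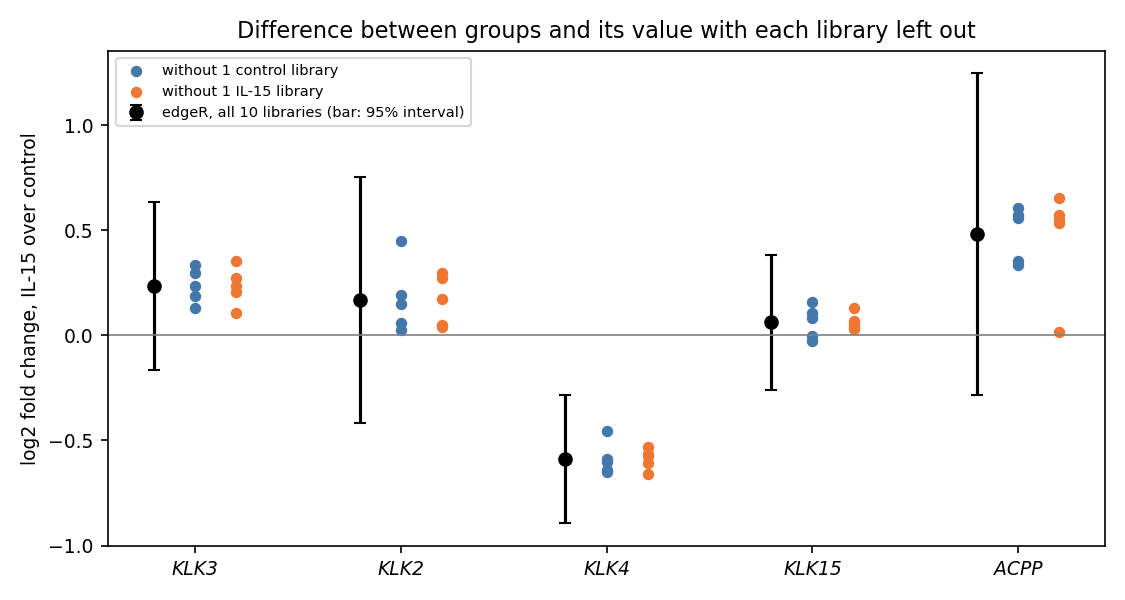
Log2 fold change of each gene (vertical axis, IL-15 over control) from all 10 libraries, beside the values with 1 control or 1 IL-15 library left out. Bars are 95% intervals by a normal approximation, narrower than the edgeR test itself implies. KLK4 stays between -0.66 and -0.45, whereas ACPP drops to 0.01 without IL-15 replicate 3.

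Per kilobase of the gene length given in the deposited table, KLK3 stood far above the other members, and the order of KLK4 and KLK2 differed between libraries. Mean levels in control tumours were 1023 ± 231 CPM per kb for KLK3, 197 ± 40.4 for KLK4, 121 ± 53.0 for KLK2, 29.7 ± 11.0 for ACPP and 10.5 ± 2.18 for KLK15 (SD, n = 5). In IL-15 tumours they were 1204 ± 288, 131 ± 16.9, 136 ± 45.1, 41.4 ± 26.4 and 10.9 ± 1.05 CPM per kb in the same order of genes. KLK3 was first and KLK15 last in 10 of 10 libraries. Per length, KLK4 exceeded KLK2 in 5 of 5 control libraries and in 2 of 5 IL-15 libraries, and in the IL-15 group their means differed by less than the spread of KLK2. That order rests on the lengths given, 6394 bases for KLK2 and 1935 for KLK4, since in CPM KLK2 was above KLK4 in every library. Whether these lengths match the transcripts expressed was not tested. ACPP ranked below KLK3, KLK4 and KLK2 and above KLK15 in 9 libraries, and in IL-15 tumour 3 it matched KLK2 at 87.6 CPM per kb each. Among protein-coding genes ranked by level per length, KLK3 held places 12 to 28, KLK4 places 108 to 233, KLK2 places 127 to 533, ACPP places 266 to 3093 and KLK15 places 3799 to 5518.

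Ratios of these genes within a library depend on neither its depth nor its scaling. The KLK4 to KLK3 ratio per length was 0.126, 0.278, 0.190, 0.184 and 0.225 in control tumours 1 to 5, and 0.121, 0.152, 0.0907, 0.0854 and 0.117 in IL-15 tumours 1 to 5. Control tumour 1 lay among the IL-15 values and the other control tumours lay above them all. The log2 difference was -0.81 ± 0.24 (SE; exact permutation p = 0.0159, two-sided; 0.0794 when adjusted over the 10 pairs of members). The KLK4 to KLK2 ratio per length averaged 1.79 ± 0.553 in control and 1.03 ± 0.255 in IL-15 tumours (log2 difference -0.78 ± 0.26, exact permutation p = 0.0397, adjusted 0.132). The KLK15 to KLK4 ratio, 0.0541 ± 0.0137 against 0.0837 ± 0.00895, had a log2 difference of 0.66 ± 0.18 (exact permutation p = 0.0159, adjusted 0.0794). The KLK2 to KLK3 ratio was 0.117 ± 0.0357 in control and 0.116 ± 0.0382 in IL-15 tumours, a log2 difference of -0.03 ± 0.29 (exact permutation p = 0.944, adjusted 0.944). Of the 10 ratios, 0 passed after adjustment, and 3 had an unadjusted p under 0.05, all of them with KLK4. The smallest p this test allows is 0.00794 before adjustment, at which 1 ratio alone would not pass over the 10 pairs. The pairs share genes and were computed with the KLK4 difference known.

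**Figure D3:**
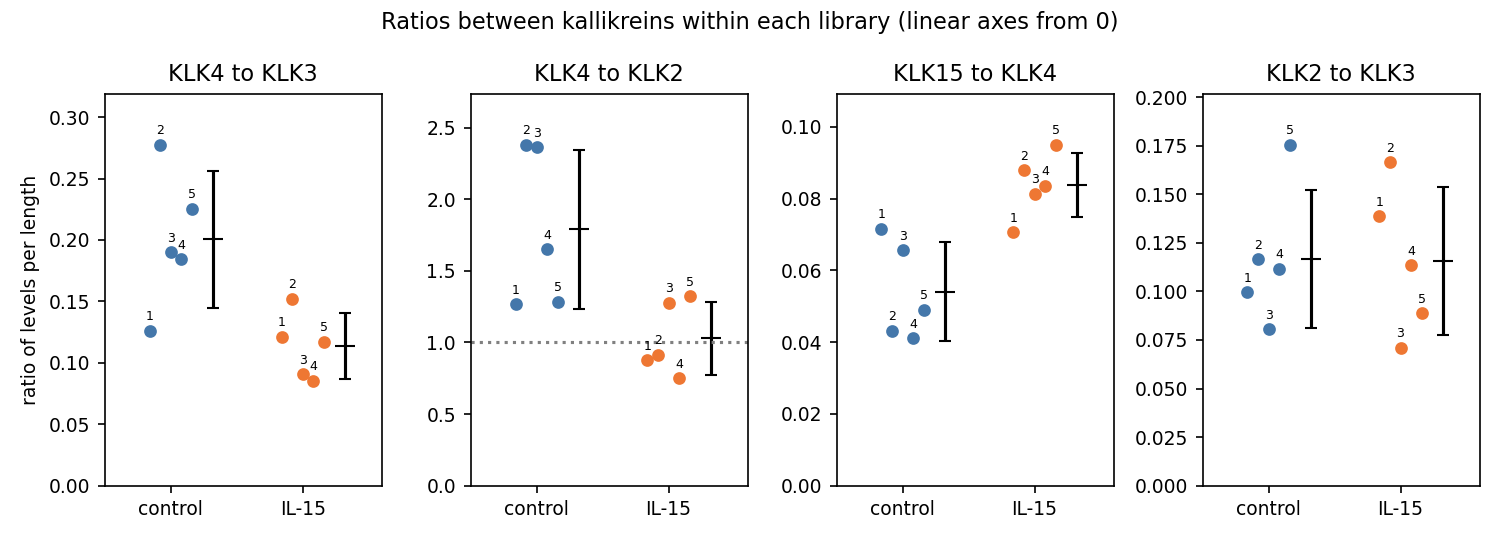
Ratios of levels per length (vertical axes, linear from 0) for 4 pairs of kallikreins in each library, with replicate numbers and mean ± SD. The groups overlap in all 4 ratios, and the KLK2 to KLK3 ratio spans 0.0806 to 0.176 in control and 0.0710 to 0.167 in IL-15 tumours.

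Across the 10 libraries no pair of the 5 genes had a correlation that passed after adjustment over the 10 pairs. KLK3 and KLK2 had Pearson r = 0.594 and Spearman rho = 0.552 over 10 libraries (permutation p = 0.0714 and 0.105, adjusted over 10 pairs 0.357 and 0.522), and r was 0.378 without the 2 libraries farthest from the KLK3 median. KLK4 and ACPP had r = -0.610 and rho = -0.382 (permutation p = 0.0608 and 0.280, adjusted 0.357 and 0.522). That relation rested on IL-15 tumour 3 and control tumour 5, since r was 0.0445 without them. For some other pairs r was farther from 0 when libraries were left out in this way, and no r with libraries left out was tested. KLK15 and ACPP had r = -0.316 and rho = -0.358 (permutation p = 0.371 and 0.313, adjusted 0.531 and 0.522), and r = -0.856 without control tumours 2 and 4. IL-15 tumour 3, the highest for ACPP and the lowest of its group for KLK15, stayed in. Within groups their r was -0.195 in control and -0.861 in IL-15 tumours. KLK4 and KLK15 had r = 0.0356 and rho = -0.103 (permutation p = 0.924 and 0.785, adjusted 0.924 and 0.837), and r = -0.751 without IL-15 tumour 3 and control tumour 5. KLK2 and KLK4 had r = 0.269 over all libraries (rho = 0.0788, permutation p = 0.451 and 0.837, adjusted 0.564 and 0.837) and r = -0.0207 without control tumours 3 and 5. After the group means were subtracted, their r was 0.754, given as a description without a test.

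**Figure D4:**
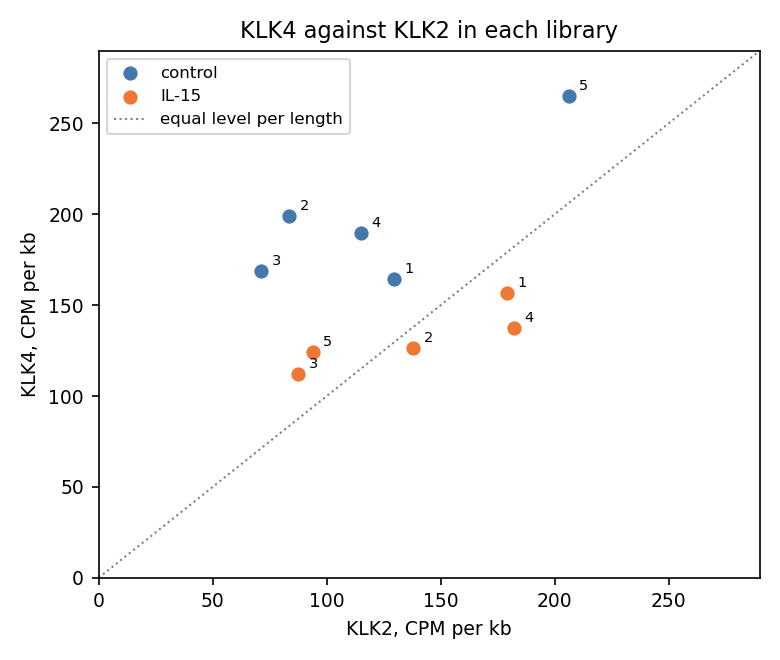
KLK4 (vertical axis) against KLK2 (horizontal axis), both in CPM per kb, for each library, with replicate numbers and a dotted line of equal level per length. In CPM without length, KLK2 was above KLK4 in every library. All 5 control libraries and 2 of the 5 IL-15 libraries lie above the line.

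The spread between tumours of a group was estimated for each member. The biological coefficient of variation, edgeR's estimate of variation beyond counting error, was 0.426 for ACPP and 0.333 for KLK2, against 0.225 and 0.228 for genes of like abundance. It was 0.233 for KLK3, 0.192 for KLK4 and 0.208 for KLK15, whose trend values were 0.229, 0.228 and 0.267. The highest control tumour exceeded the lowest 2.89-fold for KLK2, 2.42-fold for ACPP, 1.82-fold for KLK3, 1.67-fold for KLK15 and 1.61-fold for KLK4. In the IL-15 group these folds were 4.19 for ACPP, 2.08 for KLK2, 1.94 for KLK3, 1.40 for KLK4 and 1.30 for KLK15, so the order of the genes differed between the groups.

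Along the kallikrein cluster, counts were concentrated in the stretch that holds these genes. From KLK1 to KLK14 the table lists 25 genes over 265098 bases, and the 4 kallikreins described here took 99.6% of the reads counted there, with 81.2% in KLK3 alone. The pseudogene KLKP1, which lies between KLK2 and KLK4, had means of 15.0 ± 1.78 (control) and 13.9 ± 2.42 CPM (IL-15), with a log2 fold change of -0.11 ± 0.17 (edgeR adjusted p = 0.920). KLK1, the tissue kallikrein gene, had a log2 fold change of 0.13 ± 0.40, and KLK14, at the far end, 0.02 ± 0.60. KLK5 and KLK9 had no count in any library. KLK10, KLK11 and KLK12 were too scarce to be tested, with at most 10, 83 and 60 reads in a library. A single library held 83 of the 127 KLK11 reads, and a single library 60 of the 93 KLK12 reads. Of the 13 other kallikrein genes listed, 4 were tested and 0 passed edgeR (0 at an unadjusted p under 0.05), with 2 fold changes above 0 and 2 below (median log2 fold change -0.04). These 4 were KLK1, KLK14, KLKP1 and KLKB1, the plasma kallikrein gene, which lies outside the cluster on chromosome 4 (log2 fold change -0.22 ± 0.36).

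**Figure D5:**
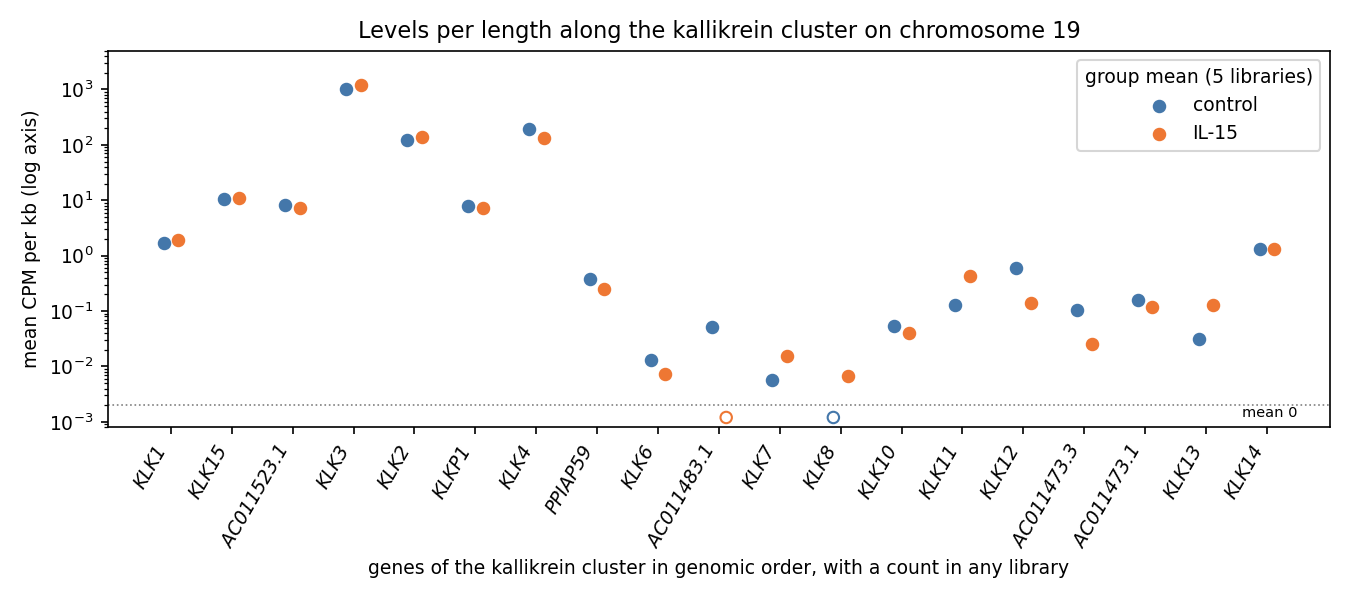
Mean CPM per kb (vertical axis, log scale) in control and IL-15 tumours for the genes between KLK1 and KLK14 that had a count, in genomic order; open circles mark a mean of 0. KLK3, KLK2 and KLK4 stand above 100 CPM per kb in both groups, and the genes from KLK6 to KLK13 lie below 1.

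Partners of these enzymes were described by lists drawn up from general knowledge. Of 14 protease inhibitors 3 were tested, with 0 past edgeR (0 at an unadjusted p under 0.05) and a median log2 fold change of -0.11. The most abundant per length was SPINT2, a membrane-bound inhibitor, at 413 ± 54.3 and 382 ± 30.5 CPM. SERPINA3, the serum inhibitor that binds PSA, had no count in any library, a remark made after its value was seen. The list of kallikrein substrates also holds membrane proteases, and whether kallikreins cleave each listed protein was not tested. Of these 17 genes 10 were tested, with 0 past edgeR and a median log2 fold change of -0.04. At an unadjusted p under 0.05, 1 gene was lower, beside 3.43% of all tested genes. That gene was ST14, the membrane protease matriptase, at 345 ± 123 and 219 ± 58.1 CPM (log2 fold change -0.66 ± 0.25, edgeR adjusted p = 0.758). Hepsin (HPN), another membrane protease and the most abundant of the list per length, measured 344 ± 83.7 and 338 ± 34.6 CPM.

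Of 8 tested genes listed with the acid phosphatases, ACPP aside, 0 passed edgeR (median log2 fold change 0.12). ACP5 was higher and ACP2 lower at an unadjusted p under 0.05, beside 3.03% and 3.43% of all tested genes. The list was drawn up broadly and includes LHPP, whose place in the family was not checked. ACP5, the tartrate-resistant phosphatase of osteoclasts and macrophages, measured 2.62 ± 1.22 and 4.67 ± 1.51 CPM (log2 fold change 0.83 ± 0.36, edgeR adjusted p = 0.758). The lysosomal phosphatase gene ACP2 measured 58.9 ± 14.9 and 42.0 ± 7.79 CPM (log2 fold change -0.49 ± 0.19, edgeR adjusted p = 0.758).

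From the list of transcription coregulators and prostate transcription factors, values are given for the genes with the smallest p, without a count. The coactivator gene NCOA1 measured 104 ± 34.2 and 58.6 ± 20.7 CPM (-0.83 ± 0.26 on the log2 scale, edgeR adjusted p = 0.758). The epithelial factor gene GRHL2 (-0.36 ± 0.15) and the corepressor gene NCOR1 (-0.41 ± 0.17), both on the log2 scale, each had an edgeR adjusted p of 0.758. Of 28 androgen response genes, all tested, 17 had fold changes above 0 and 11 below (median log2 fold change 0.03), with 0 past edgeR and 2 lower at an unadjusted p under 0.05, ZBTB16 and PTGER4, beside 3.43% of all tested genes. The transcription factor gene ZBTB16 measured 45.4 ± 10.9 and 28.1 ± 8.62 CPM (-0.69 ± 0.22 on the log2 scale, edgeR adjusted p = 0.758), and PTGER4, a prostaglandin receptor gene, 23.9 ± 18.5 and 10.2 ± 4.59 CPM. Of 13 other genes listed as prostate secretory products, 6 were tested and 0 passed edgeR (0 at an unadjusted p under 0.05). The list also holds CPNE4 and NEFH, which do not encode secreted proteins. Fold changes were above 0 for 5 of the 6 tested and below 0 for CPNE4, with a median log2 fold change of 0.79 beside -0.01 over all tested genes. Among the 6, RLN1 had only 4 to 16 and MSMB 3 to 51 reads per library. CRISP3 measured 77.7 ± 81.1 and 244 ± 475 CPM, with 20565 of its 22430 IL-15 reads in a single library. The most abundant per length was SPON2, an extracellular matrix protein gene, at 1673 ± 542 and 2213 ± 808 CPM. MSMB, a major protein of seminal plasma, measured only 0.974 ± 0.738 and 1.89 ± 1.14 CPM, and AZGP1, a secreted zinc-binding glycoprotein gene, 5.90 ± 3.71 and 14.5 ± 9.79 CPM.

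The genes whose log2 CPM followed each member most closely over the 10 libraries were taken from 12549 other protein-coding genes, as a description without a test. For KLK4 they were EPHB2, a receptor tyrosine kinase gene (r = 0.948), C12orf10 (0.940) and the casein kinase gene CSNK1G2 (0.932). In each of these the IL-15 values were all lower than the control values, as in 0.313% of all tested genes. Genes picked for likeness to KLK4 over both groups tend to share its group difference, so this is no separate evidence. EPHB2 measured 17.8 ± 5.56 and 11.0 ± 1.46 CPM in control and IL-15 libraries (log2 fold change -0.70 ± 0.22, edgeR adjusted p = 0.758). For KLK2 they were TMEM79 (0.958), RNPEP (0.946) and CNPY3 (0.940), for KLK3 OPRL1 (0.924), TAS1R3 (0.921) and ZG16B (0.917). ACPP was followed by DAPK2 (0.949), SLC17A5 (0.941) and ACVR1B (0.941), and KLK15 by DUSP27 (0.901), GRIK5 (0.897) and NVL (0.897). No gene appeared in more than 1 of these lists. With 12549 genes searched over 10 libraries, some high r can arise by chance, and how far was not tested. Some of the genes were scarce, with mean levels (control, IL-15) of 1.05 and 1.53 CPM for OPRL1 and 1.02 and 1.19 CPM for DUSP27.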

How the data were processed

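RNA of 10 LNCaP xenograft tumours was sequenced, 5 libraries in each of 2 groups taken from the sample labels. Among the tools in the submitters' processing notes are HISAT2 2.0.5 (aligner) and featureCounts 1.5.0-p3 (read counter), with build hg38. The notes give no settings, and no source used here says whether counting used strand, which annotation release served, or how mouse reads were handled. The labels name mouse as organism, but the deposited tables hold human genes. Per the file headers, the authors' count table gives reads per gene, and its values are whole numbers. The FPKM deposited by the authors relate to library totals 1.007 to 1.242 times the count totals and served only as an alternative, and their group means were not used.

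Genes passing filterByExpr (minimum count 10) were normalised by TMM. The quasi-likelihood test of edgeR 4.0.16 (robust, R 4.3.3) was adjusted by Benjamini-Hochberg over 16913 genes, with a threshold of 0.05, and checked on simulated data. Alternatives were limma 3.58.1, DESeq2 1.42.0, other scalings and filters, FPKM (pseudocount 0.1 or 1), a replicate block and each library left out. Ratios were tested over all 252 assignments of libraries, correlations of log2 CPM (prior count 2) with 100000 permutations. Named were the 5 members, the 3 protein-coding genes (mean of at least 1 CPM) most like each, cluster genes reaching 10 reads and, from each list, up to 4 genes with the smallest p and the most abundant one, not all of which are described. The full counts of the coregulator list are not reported here. Members and lists were chosen with earlier results of these data known.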

Additional observations from a re-analysis of the deposited data

Results flagged for a closer look

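In 30 groups of 5 values, made of the levels of the 5 genes and their 10 ratios in each group, the highest or lowest library was checked for a gap to its nearest neighbour above 0.710 of the group's range, which chance gives in about 1 group of 20. All flagged values came from IL-15 tumour 3. Its ACPP level was 367 CPM against a group median of 139 CPM. Its KLK15 level was 20.8 CPM, below the group median of 25.4 CPM. The log2 ratio per length of ACPP to KLK3 was -3.82 (group median -5.29) and that of ACPP to KLK4 was -0.35 (group median -2.04), both of which share the ACPP value. This library also had the largest TMM factor of the 10, 1.10, and the largest ratio of the deposited FPKM total to the count total, 1.242, and the part of these in its values was not tested.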

How the results depend on the processing

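KLK3, KLK2, KLK4 and ACPP kept their direction and stayed short of the threshold in all 20 alternatives, with adjusted p from 0.595 to 0.999 for KLK3, 0.815 to 0.999 for KLK2, 0.151 to 0.999 for KLK4 and 0.607 to 0.999 for ACPP. With single libraries left out, log2 fold changes ran from 0.11 to 0.35 for KLK3, 0.03 to 0.45 for KLK2, -0.66 to -0.45 for KLK4, -0.0276 to 0.16 for KLK15 and 0.01 to 0.66 for ACPP, and 0 genes were called. KLK15 turned to -0.0023 without control replicate 2 and -0.0276 without control replicate 4. The count of called genes was 1 with no low-count filter (2756 at an unadjusted p under 0.05) and 15 with DESeq2, against 0, and the cause was not tested. Of the 10 ratios, 0 passed in any alternative, which says little about how firm that count is. KLK15 to KLK4 without control replicate 1 reached the smallest exact permutation p, 0.00794, and its adjusted p was still 0.0794. With the replicate block no ratio could pass, and deposited FPKM gave the same ratios by construction. Those that reversed were KLK15 to KLK2 (0.0722 without control replicate 3), KLK2 to KLK3 (0.13 without control replicate 5 or IL-15 replicate 3, 0.05 without IL-15 replicate 5), ACPP to KLK3 (-0.09 and -0.14 without control replicate 5 and IL-15 replicate 3), ACPP to KLK2 (-0.22 and -0.27 without the same) and ACPP to KLK15 (-0.0712 without IL-15 replicate 3). The highest or lowest values on the other side were -0.267 for KLK15 to KLK2, -0.177 for KLK2 to KLK3, 0.295 for ACPP to KLK3, 0.446 for ACPP to KLK2 and 0.517 for ACPP to KLK15. The KLK4 and KLK15 correlation was -0.179 with library size alone. The labels name no pairing by replicate number. Deviations of same-numbered libraries correlated from -0.317 to 0.383 and 1 of 5 matched its own number best, which is too little to decide whether they are paired. With the number as a block, the SE went from 0.391 to 0.232 for ACPP, 0.203 to 0.160 for KLK3 and 0.298 to 0.265 for KLK2. It went from 0.155 to 0.164 for KLK4 and from 0.163 to 0.174 for KLK15. With the replicate number as a block, KLK4 had a log2 fold change of -0.58 (adjusted p = 0.803), ACPP 0.39, KLK3 0.23, KLK2 0.22 and KLK15 0.08, with 0 genes called. Over pairs, the exact sign-flip test of a ratio cannot go below p = 0.0625. Library size alone moved the median of all tested genes to 0.08, and KLK4 stood 0.58 below the median there and in the main test. Depth sets no limit on these genes, whose smallest count was 279.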
